A study of Mus musculus with 6 samples.

Results

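Genes of the vascular growth factor, angiopoietin and apelin systems, and genes that mark the cells lining blood vessels, were followed by symbol in RNA from the soleus (Sol) muscle of mice trained by voluntary wheel running (VWR). The 10 genes were taken by symbol, by a rule that uses no measured value, although the set was drawn up with earlier results of these data known. They are 5 ligands (Vegfa, Vegfb, Angpt1, Angpt2 and Apln), 3 endothelial receptors (Flt1, Kdr and Tek) and 2 genes of endothelial junctions (Pecam1 and Cdh5). All 10 are among the 24411 genes listed, and all 10 passed the filter on low counts, which left 12828 genes to be tested. Poly(A) RNA was sequenced from 3 WT and 3 LSD1-mKO male mice of the C57BL/6 background, with 1 library per mouse. Both genotypes carried floxed Lsd1 alleles, and only LSD1-mKO mice carried CreERT2, a recombinase activated by tamoxifen, under the human ACTA1 promoter. That promoter is active in differentiating and differentiated muscle cells, so endothelial, mural and other resident cells of the LSD1-mKO muscle were not targeted. Both groups began at 8 weeks of age, had a wheel for 38 days, and received tamoxifen at 75 mg/kg on 5 days after 3 days of familiarization. The mice were fasted and kept from the wheel before the tissue was taken, and no sedentary mice are in the series.

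Skeletal muscle is supplied by a dense capillary bed, and slow, oxidative muscle such as Sol is especially rich in capillaries. Muscle fibers secrete VEGF-A, which binds the receptor tyrosine kinases VEGFR2 (Kdr), the main driver of endothelial growth and migration, and VEGFR1 (Flt1), which binds VEGF-A tightly, signals weakly and also exists as a soluble decoy. Of the VEGF receptor tyrosine kinases, VEGF-B (Vegfb) binds VEGFR1. Angiopoietin 1 (Angpt1) activates the receptor TIE2 (Tek) and stabilizes vessels, whereas angiopoietin 2 (Angpt2), made by endothelial cells themselves, often opposes it. Apelin (Apln) is a peptide made by sprouting endothelial cells and by other tissues, and acts on the receptor encoded by Aplnr. PECAM-1 (Pecam1) and VE-cadherin (Cdh5) hold endothelial cells together and are expressed along the whole vascular lining.

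The libraries held between 8940206 and 13798059 estimated counts, and levels are given as TMM-normalized CPM (counts scaled to library size, comparable between mice) or as TPM (also divided by transcript length, comparable between genes). The targeted gene was checked first. Kdm1a, which encodes LSD1, measured 40.5, 38.2 and 33.6 CPM in the WT mice and 14.6, 16.6 and 16.6 CPM in the LSD1-mKO mice, so every label matched its genotype (log2 fold change -1.23, standard error 0.11, edgeR adjusted p = 0.0160). Without WT replicate 2 or without any 1 of the LSD1-mKO mice, 0 genes were lower at an adjusted p under 0.05 in edgeR, Kdm1a included. Slow fiber markers were abundant in all mice, with a summed level of 32173 to 41943 CPM over the 7 genes Myh7, Myl2, Myl3, Tnnt1, Tnni1, Tnnc1 and Atp2a2. WT replicate 1 stood apart in part: it was the lowest of the 6 mice for 23.4% of all genes tested and for 5 of the 10 genes followed here. In bulk muscle RNA, fewer endothelial cells and less RNA per endothelial cell cannot be told apart.

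In brief, none of the 10 genes was found to differ between LSD1-mKO and WT Sol after VWR. Fitted levels were higher in LSD1-mKO for 4 of the 5 ligands and for 2 of the 3 receptors, and lower for both junction genes, and the groups overlapped for every one. Together 6 of the 10 had a fitted level above WT, against 45.2% of all genes tested. That count depended on single mice: it was 4 without WT replicate 1, 4 without LSD1-mKO replicate 1 and 8 without WT replicate 2. Without WT replicate 1 the fitted levels of all 3 receptors were below WT. Adjusted over all genes by edgeR's quasi-likelihood test with the Benjamini-Hochberg method, 0 of the 10 passed 0.05, against 0.0156% of all genes tested (0.0078% higher and 0.0078% lower). Without adjustment, 0 of the 10 had p under 0.05 in edgeR, against 6.4% of all genes tested. DESeq2 also called 0 of the 10 at an adjusted p under 0.05, against 0.327% of all genes tested. The 2 genotypes overlapped for all 10 genes; for comparison, all 3 LSD1-mKO mice lay above all 3 WT mice for 6.62% of genes tested and below them for 6.1%. The smallest p that an exact permutation test of 3 mice against 3 can give is 0.1, and the smallest reached here was 0.2, for Vegfb.

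**Figure D1:**
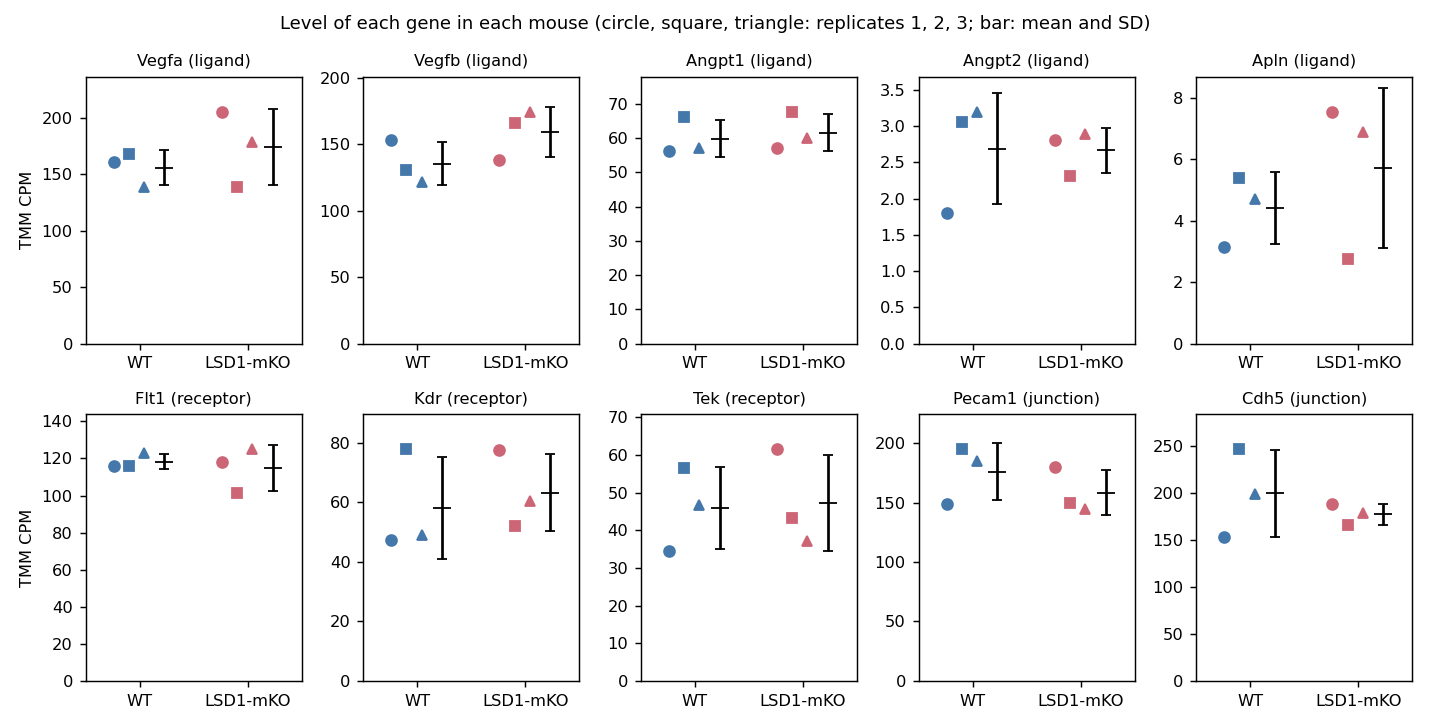
Level of each of the 10 genes in each mouse, in TMM CPM on axes that start at 0; symbols are the replicates and the bars give the mean and SD of 3 mice. The WT and LSD1-mKO points overlap in all 10 panels, and Apln in LSD1-mKO is spread most widely, from 2.75 to 7.55 CPM.

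Over the 6 mice the genes spanned a wide range of levels. Vegfb was the most abundant, at 215 to 302 TPM, and its lowest mouse lay above the highest mouse of any other gene followed here. Pecam1 (88.3 to 135 TPM), Vegfa (88.5 to 130 TPM) and Cdh5 (78.3 to 147 TPM) came next, and these neighbours did not differ beyond their spread. Flt1 (32.4 to 40.1 TPM) and Angpt1 (26.9 to 36.9 TPM) overlapped each other, Angpt1 also overlapped Kdr (16.3 to 31.2 TPM), and Kdr overlapped Tek (15.2 to 29.0 TPM). Apln (1.93 to 5.25 TPM) and Angpt2 (1.04 to 2.04 TPM) formed the bottom of the order, well below the rest. Thus 2 of the 5 ligands were more abundant than all 3 receptors, Angpt1 was at the level of the receptors, and the other two were lower.

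**Figure D2:**
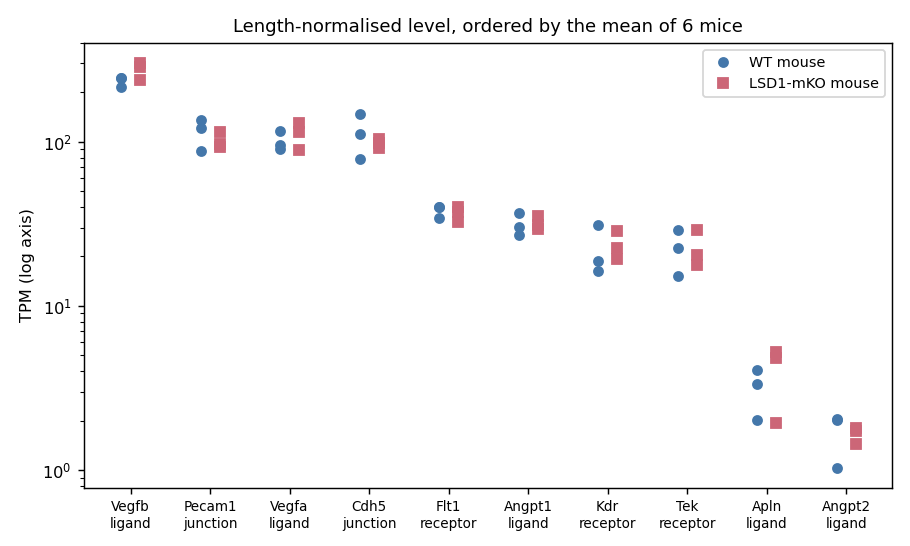
Length-normalised level in TPM on a log axis, one point per mouse, with genes ordered by the mean of the 6 mice. The range of Vegfb (215 to 302 TPM) lies above all others, and Apln and Angpt2 lie below 5.3 TPM.

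Among the ligands, Vegfa lies on chromosome 17 of GRCm38 from 46016993 to 46032369, on the minus strand. It measured 161, 168 and 138 CPM in the WT mice and 205, 138 and 178 CPM in the LSD1-mKO mice. LSD1-mKO replicate 1 was the highest of all mice and LSD1-mKO replicate 2 lay at the bottom with WT replicate 3, so the LSD1-mKO group spanned the whole WT group. The log2 fold change was 0.16 (standard error 0.15, edgeR adjusted p = 0.868), with a 95% interval from 0.883-fold to 1.41-fold. It was 0.02 without LSD1-mKO replicate 1 and 0.31 without LSD1-mKO replicate 2, where the unadjusted edgeR p was 0.0423. The study placed Vegfa in a cluster of genes that it selected as higher in LSD1-mKO on these same mice, so the sign of this small difference is not independent evidence.

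Vegfb lies on chromosome 19 from 6982473 to 6987651, on the minus strand. In CPM it measured 153, 131 and 122 in WT and 139, 166 and 175 in LSD1-mKO. LSD1-mKO replicates 2 and 3 lay above all WT mice, whereas LSD1-mKO replicate 1 lay below WT replicate 1. Its log2 fold change of 0.24 (standard error 0.12, edgeR adjusted p = 0.766) came with the smallest unadjusted p of the 10 genes, 0.0843 in edgeR, and with a 95% interval from 0.973-fold to 1.43-fold. Without WT replicate 1 the log2 fold change was 0.34, with an unadjusted edgeR p of 0.0184 and an adjusted one of 0.269. Without LSD1-mKO replicate 1 it was 0.33, with an unadjusted edgeR p of 0.0274 and an adjusted one of 0.650. Vegfa and Vegfb did not follow each other across mice: replicate 1 of LSD1-mKO was highest for Vegfa and was the lowest of its group for Vegfb. The share of Vegfa in the summed TPM of both genes accordingly ran from 23.6% in LSD1-mKO replicate 2 to 35.5% in LSD1-mKO replicate 1, with the WT mice between 28.1% and 32.2%.

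The promoter windows of the 2 VEGF ligands and their 2 receptors are shown, as the VEGF part of the ligands and receptors compared here. They come from RefSeq on GRCm38.p6, run from 250 bases before to 50 bases after the annotated start, and are written 5′ to 3′ on the strand of the gene. Such windows were at hand for 6 of the 10 genes; Angpt1, Angpt2, Pecam1 and Cdh5 had none. Capitals mark the letters ACGTG or GCGTG on either strand, the core bound by hypoxia-inducible factors, which 43.8% of all 32851 windows of this length hold. The windows are chr17:46032328-46032627 for Vegfa, chr19:6987602-6987901 for Vegfb, chr5:147725962-147726261 for Flt1 and chr5:75978406-75978705 for Kdr, all on the minus strand.
Vegfa: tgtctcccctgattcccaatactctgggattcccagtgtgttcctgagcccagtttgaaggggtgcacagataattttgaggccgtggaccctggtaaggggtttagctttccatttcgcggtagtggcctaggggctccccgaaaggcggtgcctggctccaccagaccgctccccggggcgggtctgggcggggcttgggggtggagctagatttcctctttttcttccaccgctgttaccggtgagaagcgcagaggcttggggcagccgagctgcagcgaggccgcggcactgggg
Vegfb: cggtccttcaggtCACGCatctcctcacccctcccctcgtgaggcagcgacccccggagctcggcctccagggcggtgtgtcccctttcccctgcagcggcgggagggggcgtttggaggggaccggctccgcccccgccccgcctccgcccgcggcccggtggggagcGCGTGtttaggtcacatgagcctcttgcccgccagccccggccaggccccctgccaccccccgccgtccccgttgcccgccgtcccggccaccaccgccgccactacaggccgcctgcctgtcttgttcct
Flt1: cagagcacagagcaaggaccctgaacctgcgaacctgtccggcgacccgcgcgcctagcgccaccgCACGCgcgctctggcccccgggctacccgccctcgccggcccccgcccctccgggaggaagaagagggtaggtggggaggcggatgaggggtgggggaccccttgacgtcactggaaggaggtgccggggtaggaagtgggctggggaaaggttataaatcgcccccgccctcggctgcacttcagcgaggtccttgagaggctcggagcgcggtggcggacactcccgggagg
Kdr: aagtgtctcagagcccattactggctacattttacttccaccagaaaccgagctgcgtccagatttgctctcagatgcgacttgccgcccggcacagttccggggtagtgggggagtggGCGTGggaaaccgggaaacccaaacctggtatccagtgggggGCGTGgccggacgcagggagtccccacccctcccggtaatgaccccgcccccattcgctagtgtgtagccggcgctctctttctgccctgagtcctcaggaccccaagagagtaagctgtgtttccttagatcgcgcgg
The window at the first start of Vegfa holds 0 copies of this core, that of Vegfb 2, that of Flt1 1 and that of Kdr 2. Those of Apln and Tek, not shown, hold 0 each. A second annotated start inside Vegfa, at chr17:46025114-46025413, has 2. The letters AAGGTCA, the core of the element bound by estrogen-related receptors, were searched on both strands because Esrrg, which encodes one of them, is among the regulators described later. They are in 0 of the 7 windows of these 6 genes, against 4.72% of all windows. No match says only that these letters are not in the window.

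Angpt1 lies on chromosome 15 from 42424723 to 42676977. It was the steadiest ligand, at 56.2, 66.1 and 57.2 CPM in WT and 57.0, 67.7 and 60.2 CPM in LSD1-mKO. The means of the genotypes nearly coincided, with a log2 fold change of 0.04 (standard error 0.10, edgeR adjusted p = 0.951) and a 95% interval from 0.874-fold to 1.21-fold. An antisense gene shares 737 bases with its exons, and the strand setting of the counting is not given in the sources used here, so reads from the antisense gene could have been counted in it. Angpt2 lies on chromosome 8 from 18690263 to 18741562 and rested on only 15 to 38 counts per mouse. It measured 1.81, 3.06 and 3.20 CPM in WT and 2.81, 2.32 and 2.89 CPM in LSD1-mKO, with WT replicate 1 lowest. Its coefficient of variation over the 6 mice was 19.5%, and counting error alone would give 18.0% at this depth. The log2 fold change was -0.03 (standard error 0.28, edgeR adjusted p = 0.984), and differences between 0.631-fold and 1.51-fold lay inside its 95% interval. Without WT replicate 1 the log2 fold change was -0.23, and without WT replicate 3 it was 0.11.

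Apln, on the X chromosome from 48025146 to 48034853, had the largest fitted difference and the largest error. It measured 3.13, 5.40 and 4.71 CPM in WT and 7.55, 2.75 and 6.89 CPM in LSD1-mKO. LSD1-mKO replicates 1 and 3 were the highest of the 6 mice and LSD1-mKO replicate 2 the lowest. The log2 fold change was 0.35 (standard error 0.38, edgeR adjusted p = 0.884), with an interval from 0.700-fold to 2.33-fold. Its coefficient of variation of 38.2% compares with 13.0% for counting error alone. Without LSD1-mKO replicate 2 the log2 fold change was 0.70 and the unadjusted edgeR p 0.0273, and without LSD1-mKO replicate 1 it was 0.09. Without WT replicate 1 it was 0.17. None of these passed 0.05 after adjustment.

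Of the endothelial receptors, Flt1 varied least of all 10 genes, with a coefficient of variation of 7.20%. It lies on chromosome 5 from 147561604 to 147726011 and measured 116, 116 and 123 CPM in WT and 118, 101 and 125 CPM in LSD1-mKO. The log2 fold change was -0.04 (standard error 0.10, edgeR adjusted p = 0.945), and the 95% interval, 0.831-fold to 1.13-fold, was the narrowest of the 10 genes. The counts cover all transcripts of the gene together, so the membrane and soluble forms cannot be told apart.

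Kdr, on the same chromosome from 75932827 to 75978458, was more variable. The WT mice had 47.4, 77.9 and 49.0 CPM and the LSD1-mKO mice 77.5, 52.0 and 60.4 CPM. WT replicate 2 and LSD1-mKO replicate 1 had nearly the same top value and the other WT mice were lowest, so the groups overlapped (log2 fold change 0.12, standard error 0.21, edgeR adjusted p = 0.933, interval 0.774-fold to 1.53-fold). Without WT replicate 2 the log2 fold change of Kdr was 0.39, with an edgeR adjusted p of 0.884. It was -0.00071 without WT replicate 1 and -0.050 without LSD1-mKO replicate 1. Tek, on chromosome 4 from 94739289 to 94874976, measured 34.6, 56.5 and 46.7 CPM in WT and 61.6, 43.2 and 37.1 CPM in LSD1-mKO. The same 2 mice were highest for both receptors, and WT replicate 1 was lowest for both. The log2 fold change of Tek was 0.04 (standard error 0.22, edgeR adjusted p = 0.979, interval 0.725-fold to 1.46-fold), and it was -0.12 without WT replicate 1, -0.20 without LSD1-mKO replicate 1 and 0.22 without WT replicate 2. The share of Kdr in the summed TPM of Flt1 and Kdr was 32.3%, 43.8% and 31.7% in WT and 43.3%, 37.4% and 36.0% in LSD1-mKO, with overlap between the groups.

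The 2 junction genes were the only pair in which both fitted levels were lower in LSD1-mKO. Pecam1, on chromosome 11 from 106654217 to 106750628, measured 149, 195 and 185 CPM in WT and 180, 150 and 145 CPM in LSD1-mKO. Cdh5, on chromosome 8 from 104101625 to 104144511, measured 153, 246 and 199 CPM in WT and 188, 166 and 178 CPM in LSD1-mKO. For Cdh5 the 3 LSD1-mKO mice lay between the lowest and the highest WT mouse, and for Pecam1 LSD1-mKO replicates 1 and 2 lay within the WT range and replicate 3 below it. The log2 fold changes were -0.15 for Pecam1 (standard error 0.13, edgeR adjusted p = 0.851) and -0.17 for Cdh5 (standard error 0.16, edgeR adjusted p = 0.868). WT replicate 1 was the lowest mouse for Cdh5 and the lowest WT mouse for Pecam1. Without it the log2 fold changes were -0.26 and -0.33, with unadjusted edgeR p-values of 0.0457 and 0.0193 and adjusted ones of 0.336 and 0.273; without WT replicate 2 that of Cdh5 was 0.01.

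**Figure D3:**
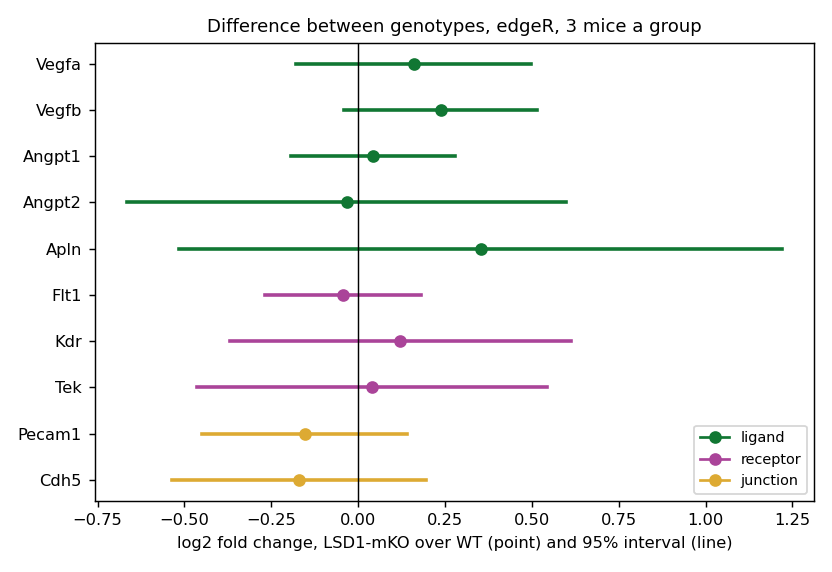
Log2 fold change of LSD1-mKO over WT for each gene (points) with its 95% interval (lines) from the edgeR fit, colored by role. All 10 intervals include 0; Flt1 has the narrowest and Apln, from -0.51 to 1.22, the widest.

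Summed over the 5 ligands, the level was 376, 373 and 326 CPM in WT and 411, 377 and 423 CPM in LSD1-mKO. The groups did not overlap in this sum, but only narrowly, with LSD1-mKO replicate 2 at 376.8 CPM and WT replicate 1 at 375.5 CPM. Vegfa and Vegfb made up most of the sum, and the study's cluster of genes selected as higher on these same mice holds Vegfa. The separation is therefore not independent evidence, and it was not tested. Over the 3 receptors the sum was 198, 251 and 219 CPM in WT and 257, 196 and 222 CPM in LSD1-mKO, and the groups overlapped. Ligands were then compared with receptors within each mouse, as a description without a test. The mean log2 CPM of the 5 ligands minus that of the 3 receptors was -1.22, -1.39 and -1.25 in WT and -1.34, -1.25 and -0.98 in LSD1-mKO. LSD1-mKO replicate 3 was the highest, and the other LSD1-mKO mice lay inside the WT range. The difference between the genotype means was 0.10, smaller than the SD between mice of 0.15, and it was -0.0030 without LSD1-mKO replicate 3. Against the junction genes in place of the receptors, the same difference was 0.29 with an SD of 0.15, and the ligand minus junction values were -2.61, -2.85 and -2.80 in WT and -2.49, -2.61 and -2.27 in LSD1-mKO. There WT replicate 1 and LSD1-mKO replicate 2 met at -2.61, and the other two LSD1-mKO mice lay above all WT mice.

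Single pairs, taken as ratios of TPM, gave a similar picture. The ratio of Vegfa to its signalling receptor Kdr was 5.84, 3.70 and 4.84 in WT and 4.54, 4.57 and 5.06 in LSD1-mKO. The LSD1-mKO mice sat inside the WT range, and the genotype means were 4.79 ± 1.07 and 4.72 ± 0.294 (each SD, n = 3). The ratio of Vegfb to its receptor Flt1 was 7.13, 6.07 and 5.35 in WT and 6.31, 8.83 and 7.52 in LSD1-mKO, and the groups overlapped through LSD1-mKO replicate 1. For the other axis, the ratio of Angpt1 to Tek ran from 1.28 to 1.77 in the WT mice and from 1.01 to 1.77 in the LSD1-mKO mice. The stabilizing ligand Angpt1 outweighed Angpt2 by 14.9 to 26.0 times in WT and by 17.0 to 24.4 times in LSD1-mKO, where the low counts of Angpt2 limit the precision. Summed, Vegfa and Vegfb exceeded Flt1 and Kdr by 5.03 to 6.71 times in WT and by 5.55 to 7.23 times in LSD1-mKO.

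**Figure D4:**
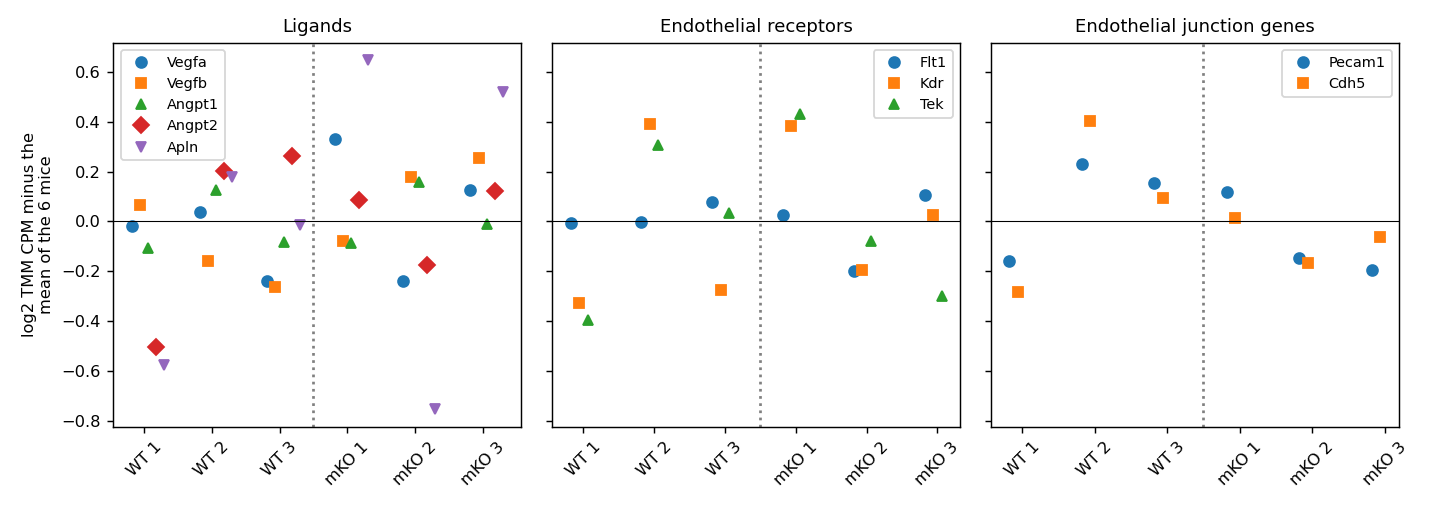
Log2 TMM CPM of each gene minus its mean over the 6 mice, for ligands, receptors and junction genes; the dotted line separates WT from LSD1-mKO. WT replicate 2 and LSD1-mKO replicate 1 are high for Kdr and Tek, WT replicate 1 is low for Kdr, Tek and Cdh5, and Flt1 runs only from -0.20 to 0.10 around its mean.

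The other genes of the same systems were read next, and none passed the test. Of the other VEGF family ligands, Vegfc, Vegfd (listed under its older symbol Figf) and Pgf, 0 of 3 had an unadjusted edgeR p under 0.05, with log2 fold changes from -0.51 for Vegfc, a lymphatic growth factor at 1.81 to 4.23 CPM, to 0.06 for Pgf. Of the receptor Flt4 and the co-receptors Nrp1 and Nrp2, 0 of 3 passed, with log2 fold changes between -0.10 and 0.02. The TIE2 partner Tie1 and the phosphatase Ptprb, which restrains TIE2 signalling, had log2 fold changes of -0.16 and -0.08, and Angpt4 was too low to be tested. The apelin receptor gene Aplnr measured 4.46, 25.8 and 8.08 CPM in WT and 17.5, 16.6 and 8.01 CPM in LSD1-mKO, a spread within each group that left its log2 fold change of 0.12 with a standard error of 0.56. Apela, the second ligand of that receptor, had 0 counts in every library.

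Regulators upstream of VEGF-A were read in the same way. In a list of 12 hypoxia and metabolic regulators, 2 had an unadjusted edgeR p under 0.05, both with the higher level in LSD1-mKO, and 3.52% of all genes did so. The median over the list was 7.49e-05 on the log2 scale, against -0.02 over all genes tested. One was Esrrg, which encodes the nuclear receptor ERRγ, known to induce Vegfa and capillary growth in muscle. It measured 147, 125 and 116 CPM in WT and 267, 208 and 282 CPM in LSD1-mKO, with no overlap (log2 fold change 0.96, standard error 0.14, edgeR adjusted p = 0.162, DESeq2 adjusted p = 1.82e-06). The study had reported Esrrg as upregulated in LSD1-mKO on these same mice, so its place in this count is not independent evidence. The other was Egln1, a prolyl hydroxylase that marks hypoxia-inducible factors for decay, which measured 427, 379 and 334 CPM in WT and 397, 522 and 529 CPM in LSD1-mKO (log2 fold change 0.35, standard error 0.14, edgeR adjusted p = 0.745). Ppargc1a, the coactivator PGC-1α, had a log2 fold change of 0.57 with a standard error of 0.32. It measured 79.7, 48.2 and 59.0 CPM in WT and 143, 58.3 and 75.5 CPM in LSD1-mKO, and the groups overlapped. The genes of the hypoxia-inducible factors themselves, Hif1a and Epas1, had log2 fold changes of -0.14 and 0.03. Hif1a measured 46.1, 49.2 and 45.6 CPM in WT and 45.4, 40.0 and 42.3 CPM in LSD1-mKO, so all LSD1-mKO mice lay below all WT mice (edgeR adjusted p = 0.781).

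Markers of endothelial cells other than the genes followed here were looked at beside the junction genes. Of 20 such markers, 20 were tested, 18 had a lower fitted level in LSD1-mKO and 2 a higher one. Over all genes tested, 45.2% had a fitted level above WT. The list had a median log2 fold change of -0.15 against -0.02 over all genes tested. The summed level of the 20 markers was 633, 718 and 667 CPM in WT and 628, 564 and 569 CPM in LSD1-mKO, so the groups did not overlap, with LSD1-mKO replicate 1 just below WT replicate 1. This sum was not tested. Taken singly, all 3 LSD1-mKO mice lay below all 3 WT mice for 2 of the 20 markers, against 6.1% of genes tested. They lay above for 0, against 6.62%. With 1 mouse left out the median stayed between -0.22 and -0.09. None passed after adjustment in edgeR or DESeq2, and 2 had an unadjusted edgeR p under 0.05, both lower, against 2.88% of all genes lower at that p. These were Vwf, which encodes von Willebrand factor of larger vessels (67.4, 75.4 and 84.5 CPM in WT and 66.5, 50.7 and 48.6 CPM in LSD1-mKO, edgeR adjusted p = 0.619), and Gpihbp1, which carries lipoprotein lipase to the capillary surface (66.7, 53.0 and 66.5 CPM in WT and 49.4, 54.1 and 52.0 CPM in LSD1-mKO, edgeR adjusted p = 0.766). The Vwf values did not overlap between the groups and the Gpihbp1 values did. WT replicate 1 was lowest for Cdh5, Kdr and Tek. It was the lowest of the 6 mice for 4 of the 20 markers, against 23.4% of all genes tested, and its sum lay above those of all LSD1-mKO mice.

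Cells next to the endothelium were considered too. In 10 markers of pericytes and smooth muscle cells, 5 fitted levels were higher and 5 lower, against 45.2% higher over all genes tested. The median log2 fold change was 0.01. The summed level was 926, 1083 and 1000 CPM in WT and 1080, 1002 and 1039 CPM in LSD1-mKO. WT replicate 1 was the lowest of the 6 mice for 6 of these 10 markers, against 23.4% of all genes tested. Fibroblast markers varied much more: the 7 genes summed to 1361, 3527 and 4478 CPM in WT and to 2867, 1408 and 1546 CPM in LSD1-mKO, and all 7 had lower fitted levels in LSD1-mKO, with 0 at an unadjusted edgeR p under 0.05. Leukocyte markers summed to 80.6, 265 and 207 CPM in WT and to 164, 85.1 and 120 CPM in LSD1-mKO. WT replicate 1 had the lowest sum of fibroblast markers and of leukocyte markers, and LSD1-mKO replicates 2 and 3 were also low in fibroblast markers. Red blood cell markers, which depend on the blood left in the tissue, summed to 201 to 535 CPM in WT and 260 to 420 CPM in LSD1-mKO. The part of these cells in the values of the endothelial genes was not tested.

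**Figure D5:**
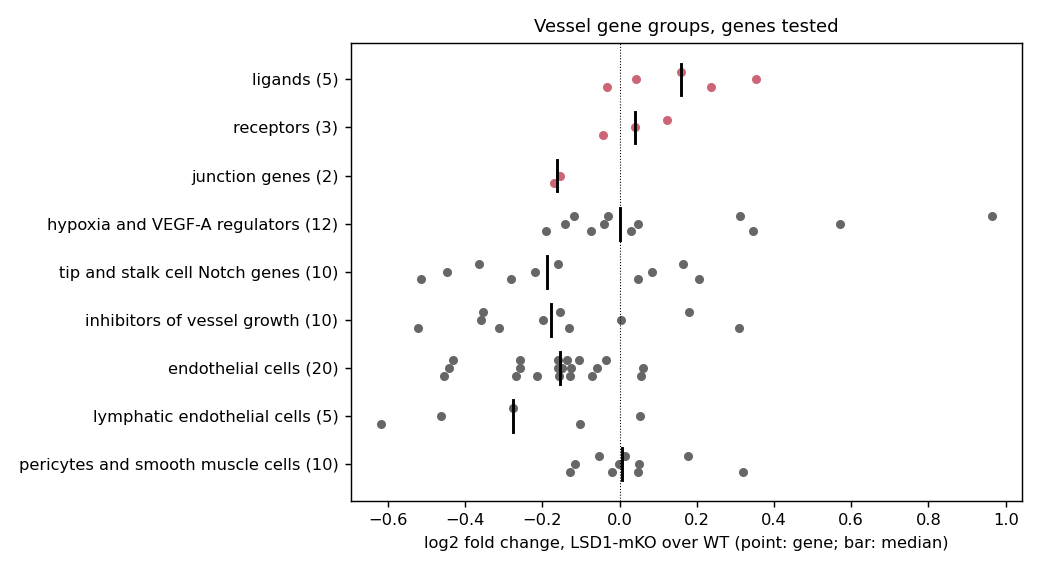
Log2 fold changes of LSD1-mKO over WT for the genes tested in each group (points, number in brackets) with the median as a bar. The medians are 0.16 for the ligands, 0.04 for the receptors, -0.16 for the junction genes and -0.15 for the 20 endothelial markers, and the point near 0.96 is Esrrg.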

How the data were processed

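Poly(A) RNA of Sol muscle from 6 mice was read as 75-base single-end reads; per the labels and the study's methods, the authors aligned them to mm10 with STAR. The authors deposited estimated counts per gene, unnormalized, for 24411 genes, with 8.33% to 9.94% of values not whole; the counting tool is not given in the sources used here. A second deposited table holds the authors' own DESeq2 comparison and was not used. Columns were assigned by the number that opens each sample title; libraries all differed by more than sampling noise (chi-square per gene at least 9.88).

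Counts were rounded and tested in R 4.3.3 with edgeR 4.0.16 (filterByExpr, TMM, quasi-likelihood test, LSD1-mKO against WT, Benjamini-Hochberg over 12828 genes, threshold 0.05). Standard errors were derived from the F statistic, and intervals are 95% with 8.33 degrees of freedom. DESeq2 1.42.0 and limma 3.58.1 (voom) served as alternatives, beside other normalizations and filters, each mouse left out in turn and the replicate number as a block. The tests were tried on simulated data. Log2 CPM used a prior count of 2. TPM used the longest coding transcript in GENCODE vM21 (GRCm38); a length was found for 23353 symbols as listed and for 650 by an older name, and for 408 none was found. The intervals and the edgeR p-values set the difference between genotypes against the spread between mice, which edgeR moderates across genes.

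The rule for the 10 genes uses symbols and no values, but the genes and the lists were chosen with earlier results of these data known, so no p over a list is given. Named genes are the 10 members, Kdm1a, the genes of each list with an unadjusted p under 0.05 or, where a list had none, at most its 2 largest log2 fold changes, and for Vegfa, Kdr and Apln the 3 genes of at least 5 CPM closest to each in centred log2 CPM. Tie1 is in 2 lists. Pgf, Nrp2, Angpt4, Apela, Ppargc1a, Hif1a, Epas1, Jag2 and the slow fiber markers other than Atp2a2 and Tnnc1 were named outside this rule after their values were seen.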

Additional observations from a re-analysis of the deposited data

How the results depend on the processing

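The log2 fold changes of the 10 genes were compared with 14 alternatives in 140 cases; 129 kept their direction and the smallest adjusted p was 0.269. The other 11 changed direction. Leaving out 1 mouse gave log2 fold changes of -0.023 to 0.12 for Angpt1, -0.23 to 0.11 for Angpt2, -0.11 to 0.048 for Flt1, -0.050 to 0.39 for Kdr, -0.20 to 0.22 for Tek and -0.33 to 0.013 for Cdh5. Reversals came without LSD1-mKO replicate 2 for Angpt1, Angpt2 (0.072) and Flt1, without WT replicate 2 for Angpt2 (0.067) and Cdh5, without WT replicate 3 for Angpt2 (0.11), without WT replicate 1 for Kdr (-0.00071) and Tek (-0.12), and without LSD1-mKO replicate 1 for Kdr (-0.050) and Tek (-0.20). The number of the 10 genes with an unadjusted p under 0.05 was 0 with all 6 mice under every test, normalization and filter, and ranged from 0 to 3 with 1 mouse left out: 3 without WT replicate 1 (Vegfb, Pecam1 and Cdh5), 2 without LSD1-mKO replicate 2 (Vegfa and Apln) and 1 without LSD1-mKO replicate 1 (Vegfb). Without WT replicate 1, 14.4% of all genes had such a p, against 6.4% with all 6 mice. The share was 5.59% without LSD1-mKO replicate 2 and 7.35% without LSD1-mKO replicate 1. Over the whole table, genes higher and lower at an adjusted p under 0.05 numbered 1 and 1 in edgeR, 8 and 3 when low counts were not filtered, 33 and 9 in DESeq2, and 2 and 1 in limma voom. With 1 mouse left out they were 1 to 2 (2 without WT replicate 1) and 0 to 1 (0 without WT replicate 2 or any LSD1-mKO mouse). The cause was not tested. The difference in the ligand minus receptor values ranged from -0.003 without LSD1-mKO replicate 3 to 0.18 without LSD1-mKO replicate 1, was 0.18 with the junction genes added to the receptors and 0.14 for VEGF ligands against VEGF receptors, and stayed within 1 SD of the value with all mice. The labels do not say whether like-numbered mice were paired. Across genes, the deviations of like-numbered mice had correlations of -0.352, -0.108 and -0.150. With 3 mice per group these cannot settle whether the mice were paired. In a fit with the replicate block, 0 genes were lower at an adjusted p under 0.05, 0 of the 10 genes had an unadjusted p under 0.05, and the log2 fold change of Angpt2 was 0.0014. Depth limits Angpt2, at 15 to 38 counts per mouse.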

Other observations

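Notch genes that set the balance of tip and stalk cells in a sprouting vessel were read beside the genes of the report. Of 10 in the list, 6 had a lower fitted level and 4 a higher one, against 45.2% of all genes tested fitted above WT. The median log2 fold change was -0.19, against -0.02 over all genes tested. Notch1, the receptor, measured 33.4, 34.9 and 33.8 CPM in WT and 29.9, 26.6 and 31.5 CPM in LSD1-mKO, with no overlap (log2 fold change -0.22, standard error 0.09, edgeR adjusted p = 0.766). Jag2, a Notch ligand of the same list, did not overlap in the other direction, at 41.3, 42.1 and 39.5 CPM in WT and 46.9, 42.8 and 48.1 CPM in LSD1-mKO (log2 fold change 0.16, standard error 0.09, edgeR adjusted p = 0.773). Non-overlap was thus seen for 1 of 10 in each direction, against 6.1% of genes tested below WT and 6.62% above. Of 10 inhibitors of vessel growth, 7 had a lower fitted level and 3 a higher one, against 45.2% of all genes tested fitted above WT. Their median log2 fold change was -0.18, against -0.02 over all genes tested. Sema3f, a secreted semaphorin that repels endothelial cells, was the one with an unadjusted edgeR p under 0.05, and it was higher: 20.3, 21.3 and 18.6 CPM in WT against 29.1, 23.2 and 22.2 CPM in LSD1-mKO (log2 fold change 0.31, standard error 0.13, edgeR adjusted p = 0.766). Over all genes tested, 3.52% were higher at that unadjusted p. Among 5 lymphatic markers, the chemokine gene Ccl21a had a log2 fold change of -0.46 with a standard error of 0.19 (edgeR adjusted p = 0.766). Adipocyte markers summed to 40.5 to 60.1 CPM in WT and 48.6 to 59.4 CPM in LSD1-mKO, and 6 genes of muscle fibers in general to 79082 to 106036 CPM and 81137 to 88914 CPM. Hba-a1, a globin gene with a near-identical copy, had a log2 fold change of 3.95 with a standard error of 1.36 (edgeR adjusted p = 0.684), and reads may have been split between the copies.

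Likeness to the genes followed here was measured as the root mean square difference of centred log2 CPM over the 6 mice, against 10210 genes. The closest to Vegfa were Zfp526, Cacna1h and Tiam2 at 0.058 to 0.061, and the closest of the other genes followed here was Flt1 at 0.18. For Kdr they were Dock8, Bri3bp and Kdm6b at 0.085 to 0.095, and Tek stood at 0.19. Apln had no close match: Wbscr17, Syt7 and Pla2g7 stood at 0.24 to 0.26, and Kdr at 0.37.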
